A study of Homo sapiens with 14 samples.

Results

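The arrays described here measured how MKN28 gastric cancer cells with ANGPTL4 knockdown responded to low oxygen. They were chosen by their titles: ANGPTL4 knockdown with hypoxia for 1 day, the same for 2 days, and the untreated culture of day 2 as their reference, which makes 3 of the 14 arrays of the series. The study asked how ANGPTL4, a secreted protein that binds and inhibits lipoprotein lipase, bears on the epithelial-mesenchymal transition that hypoxia, TGFb or an inducible Snai1ER transgene sets off, and on the ABC transporters that pump drugs out of cells. The question of this comparison is which part of the oxygen response was still present with knockdown. Day 2 is the main comparison, and day 1 is kept apart because its array stood away from all others.

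All cells were grown in RPMI with serum and seeded sparsely so that single colonies formed before treatment. Hypoxia meant an oxygen concentration of 1% in a chamber purged with nitrogen and CO2. The labels name the line MKN28, while the study's text names MKN74. That text gives siRNA as a means of ANGPTL4 knockdown, with an inducible shRNA in the Snai1ER line, and the labels of these arrays do not say how the gene was knocked down. Each condition has 1 array, so a difference between arrays has no replicate check and no p-value is given. No untreated array of day 1 is in the series, so each day 1 difference also holds the time in culture. The untreated array carries no knockdown, so each difference from it holds low oxygen and knockdown together, and these cannot be told apart within it. For that reason the knockdown array of day 2 is also set against other arrays. The first is the day 2 array with knockdown and TGFb at 10 ng per ml, where the labels give no hypoxia. The second is the untreated Snai1ER array of day 4, a derivative line without knockdown. The first difference also holds any effect of TGFb, and the second knockdown and the change of line and day. Neither isolates low oxygen.

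Cells sense oxygen mainly through the HIF proteins. When oxygen is plentiful, the prolyl hydroxylases of the EGLN family mark HIF1A and EPAS1 (HIF-2alpha) for the VHL ubiquitin ligase. When it is scarce, the alpha subunits persist, pair with ARNT and bind DNA at a short core motif near genes of glycolysis, pH control, vessel growth and mitophagy. Low oxygen also slows DNA replication and ribosome production and engages the ATF4 arm of the stress response. In gastric carcinoma cells, as in other solid tumour cells, HIF target genes are a standard readout of low oxygen.

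Values are log2 levels, a difference of 1 being 2-fold, and a gene was called higher or lower when it differed at least 1.5-fold. The knockdown array of day 1 had the narrowest spread of the 14, with an interquartile range of 2.90 against 3.12 to 3.28 on the other arrays apart from those with TGFb and no knockdown, which reached 3.61 and 3.63. Measured from the average of the others, its values had an SD of 0.69, where the remaining 13 arrays had 0.27 to 0.56. Across the 33297 probe sets it correlated with the knockdown array of day 2 at r = 0.94, while the day 2 array correlated at r = 0.99 with TGFb and knockdown on day 1 and at r = 0.98 with hypoxia alone on day 2. Of the 20 measured gastric epithelial markers, 12 passed the filter on dim genes, with a summed log2 level over the 20 of 147.7 untreated, 144.6 with knockdown on day 1 and 146.0 on day 2. Fibroblast, endothelial and immune markers had 1 member each above the filter, of 10, 8 and 11 measured, with summed levels of 49.7 and 50.1, 38.5 and 38.1, and 54.7 and 55.2 on the untreated and the day 2 knockdown array. On the day 1 knockdown array these sums were 50.9, 39.9 and 58.2, each above the untreated one.

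ANGPTL4 itself gave no check of the knockdown. Its probe set read 5.28 on the untreated array, 5.29 and 5.22 in hypoxia without knockdown, and 5.66 and 5.29 with knockdown on days 1 and 2. All 5 values lay below the filter level of 5.90, and they did not separate cells with knockdown from those without. The labels are therefore the only source for which arrays carry the knockdown.

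On day 2, hypoxia with knockdown differed from the untreated array in 2368 of the 11050 genes kept (21.4%), with 910 higher (8.24%) and 1458 lower (13.2%). Hypoxia alone on day 2, read against the same untreated array, gave 575 higher (5.20%) and 491 lower (4.44%). The median difference over all genes was -0.04 with knockdown and -0.01 without. The gene groups below are read against these shares. Because the cells were measured in bulk, fewer cells of a kind and less RNA per cell cannot be told apart.

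Of 18 measured HIF subunits and regulators above the filter, 7 were higher on day 2 with knockdown and 2 lower, with a median difference of 0.45, and 4 were higher and 1 lower with hypoxia alone, with a median of 0.06. EGLN3, the prolyl hydroxylase that is itself raised by HIF, read 7.17 untreated, 9.13 and 8.53 in hypoxia alone, and 10.41 and 9.06 with knockdown on days 1 and 2. All 4 hypoxic arrays lay above the untreated one, and day 2 with knockdown was 3.69-fold higher. BHLHE40, a transcriptional repressor induced by HIF, read 10.23 untreated, 11.51 and 11.35 in hypoxia alone, 9.90 with knockdown on day 1 and 12.10 on day 2. MXI1, an antagonist of MYC, differed by 1.36 on day 2 with knockdown and 0.96 without.

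The subunits themselves varied less. HIF1A, whose protein rather than RNA is the regulated step, read 11.05 untreated, 10.75 and 10.38 in hypoxia alone, and 10.70 and 10.63 with knockdown, which leaves every hypoxic array below the untreated one. It was past 1.5-fold in hypoxia alone on day 2, at -0.67, and at -0.42 with knockdown. EPAS1 differed by -0.05 with knockdown on day 2 and ARNT by 0.71, while ARNT without knockdown differed by 0.13. EGLN1, the main oxygen sensor of the family, differed by 0.75 with and 0.52 without knockdown. CITED2, which competes with HIF for its coactivators, differed less with knockdown, at 0.54 with knockdown against 1.05 without. The members called lower were RBX1 at -0.77 and ELOB at -0.65, both parts of the VHL ligase. ELOB differed by 0.17 when TGFb with knockdown on day 2 was the reference. VHL and HIF1AN, the asparagine hydroxylase, differed by -0.21 and -0.29.

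HIF target genes outside glycolysis had the highest median of the 18 gene lists on day 2 with knockdown. Of 32 members above the filter, out of 48 measured, 21 were higher and none lower on day 2 with knockdown, beside 8.24% of all genes higher. The median difference was 0.97 with knockdown and 0.68 with hypoxia alone, where 17 of 32 were higher and none lower. Against TGFb with knockdown on day 2, where 9.37% of all genes were higher and 11.2% lower, 20 were higher and none lower with a median of 1.04. Against the untreated Snai1ER array, with 14.6% higher and 18.1% lower over all genes, 24 were higher and 2 lower with a median of 1.06.

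NDRG1, a stress-induced gene often used as a hypoxia marker, read 9.34 untreated, 11.65 and 11.88 in hypoxia alone, 10.01 with knockdown on day 1 and 12.31 on day 2, a 7.83-fold difference on day 2. ANKRD37, an ankyrin repeat protein, read 7.90 untreated, 10.40 and 9.89 in hypoxia alone, and 9.33 and 10.83 with knockdown. HILPDA, which blocks the lipase ATGL and so favours lipid droplets, read 7.93 untreated, 9.52 and 9.61 in hypoxia alone, 7.50 with knockdown on day 1 and 10.78 on day 2. For each of these genes the highest of the 5 arrays was knockdown on day 2. DUSP1, a phosphatase of MAP kinases, read 7.58 untreated, 9.05 and 9.30 in hypoxia alone, and 7.50 and 9.57 with knockdown, so that day 1 with knockdown lay at the untreated level and day 2 above all others.

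Secreted and signalling members followed. ADM, a vasodilator peptide, differed by 1.93 on day 2 with knockdown and 0.86 without. IGFBP3, which binds insulin-like growth factors, was among the members that were not larger with knockdown, at 1.70 against 1.86. VEGFA, the main angiogenic growth factor, differed by 0.71 with and 0.53 without. Metabolic and stress members included ERO1A, an oxidase of the endoplasmic reticulum, at 1.48 and 0.96, and DDIT4, an inhibitor of mTORC1, at 1.38 and 0.58. CCNG2, a cyclin linked to growth arrest, differed by 1.49 and 1.28.

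Not every target was kept at its full size. TMEM45A, a transmembrane protein, read 7.88 untreated, 9.95 and 9.50 in hypoxia alone, and 8.44 and 8.32 with knockdown, so both knockdown arrays lay between. PLAUR, the urokinase receptor, differed by 0.52 with knockdown and 1.18 without. Set directly against hypoxia alone on day 2, where 4.08% of all genes were higher and 9.23% lower, 8 of the 32 targets were higher with knockdown and 2 lower, with a median of 0.27. WSB1 and KLF10 stood at 1.33 and 0.81 with knockdown, against 0.12 and -0.00 without. Below the filter, and so outside these counts, RRAGD differed by 1.79, SPAG4 by 0.78 and TF by 0.67 with knockdown on day 2.

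**Figure D1:**
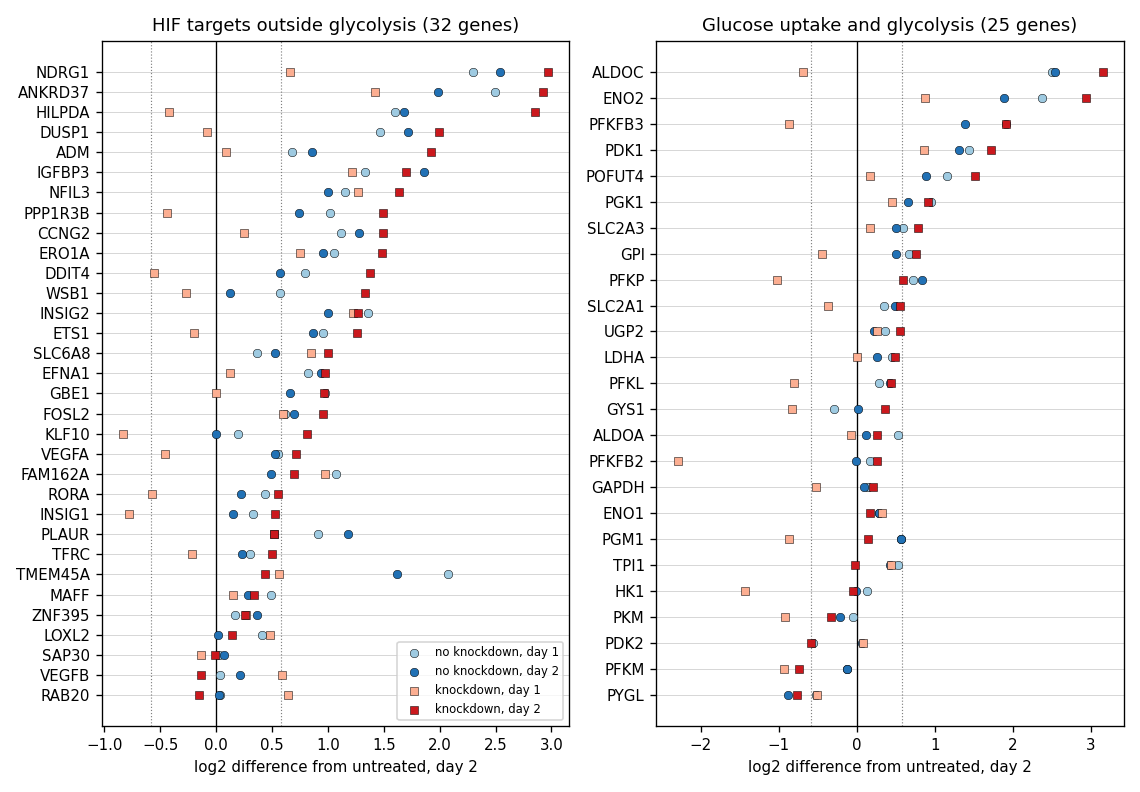
Log2 difference from the untreated array of day 2 for each HIF target outside glycolysis (left, 32 genes) and each gene of glucose uptake and glycolysis (right, 25 genes), with 1 point per array. Dotted lines mark 1.5-fold. The day 2 points with knockdown (dark squares) reach 2.97 for NDRG1 and 3.15 for ALDOC and lie at or right of those without knockdown for most of the upper genes, while the day 1 points with knockdown (pale squares) fall on both sides of 0.

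Of 25 genes of glucose uptake and glycolysis above the filter, 9 were higher and 3 lower on day 2 with knockdown, and 7 were higher and 1 lower with hypoxia alone. The medians were 0.44 and 0.42. Against TGFb with knockdown on day 2, 11 were higher and 1 lower.

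ALDOC, an aldolase isoform, read 7.65 untreated, 10.16 and 10.19 in hypoxia alone, 6.97 with knockdown on day 1 and 10.81 on day 2. It was 8.89-fold higher on day 2 with knockdown. ENO2, an enolase isoform, read 6.11 untreated, 8.48 and 7.99 in hypoxia alone, and 6.99 and 9.05 with knockdown, a 7.67-fold difference on day 2. The day 2 array with knockdown was the highest of the 5 for both. PFKFB3, which makes the activator of phosphofructokinase, differed by 1.91 with and 1.39 without knockdown. PDK1, a kinase that inhibits pyruvate dehydrogenase, differed by 1.72 and 1.31. POFUT4 (listed by its older name FUT11), a fucosyltransferase that is counted in this list, differed by 1.52 and 0.89.

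The enzyme PGK1 differed by 0.91 with and 0.66 without knockdown and GPI by 0.75 and 0.50. The glucose transporter SLC2A3 differed by 0.78 and 0.50, while SLC2A1, LDHA, ALDOA, GAPDH and ENO1 stayed within 1.5-fold on day 2 with knockdown. The 3 lower members were PYGL, the liver form of glycogen phosphorylase, at -0.77, PFKM, the muscle phosphofructokinase, at -0.74, and PDK2 at -0.59. PYGL was also lower without knockdown, at -0.88, whereas PFKM and PDK2 differed by -0.12 and 0.07. PDK3 and PFKFB4, both below the filter, differed by 1.10 and 0.64.

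Some promoters of raised target genes are printed to show where ACGTG, a form of the core HIF motif, lies in them. Other forms were not searched and are not marked. RefSeq promoters on GRCh38, 250 bases before and 50 after the start, were searched for ACGTG on both strands, so CACGT marks a match on the other strand. A CACGTG, the E-box that other factors also bind, counts as a match on each strand. Of 27305 promoters, the first listed for each gene, 21.6% held ACGTG and 7.43% held CACGTG, and among genes that passed the filter 27.1% held ACGTG. The 4 shown are the HIF target or glycolysis genes with the largest day 2 difference with knockdown whose promoter was listed and held the motif, so they say nothing of how common it is. NDRG1 and HILPDA, with larger differences than DUSP1, had no entry. Matches are in capitals, and letters run 5′ to 3′ along the gene. ALDOC lies at chr17:28576846-28577145 on the minus strand, ENO2 at chr12:6914330-6914629 on the plus strand, ANKRD37 at chr4:185396591-185396890 on the plus strand and DUSP1 at chr5:172771146-172771445 on the minus strand.
ALDOC: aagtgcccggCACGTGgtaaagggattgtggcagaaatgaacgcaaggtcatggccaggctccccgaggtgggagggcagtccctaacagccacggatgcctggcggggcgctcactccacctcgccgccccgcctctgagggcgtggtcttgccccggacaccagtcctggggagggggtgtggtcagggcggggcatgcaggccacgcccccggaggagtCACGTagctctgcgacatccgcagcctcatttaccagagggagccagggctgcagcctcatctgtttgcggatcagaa
ENO2: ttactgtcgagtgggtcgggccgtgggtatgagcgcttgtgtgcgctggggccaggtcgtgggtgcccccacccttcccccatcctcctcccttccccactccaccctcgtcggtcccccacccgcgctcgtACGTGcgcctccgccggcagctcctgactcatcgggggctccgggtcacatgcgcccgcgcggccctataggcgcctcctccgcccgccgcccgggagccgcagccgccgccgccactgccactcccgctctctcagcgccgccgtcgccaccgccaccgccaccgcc
ANKRD37: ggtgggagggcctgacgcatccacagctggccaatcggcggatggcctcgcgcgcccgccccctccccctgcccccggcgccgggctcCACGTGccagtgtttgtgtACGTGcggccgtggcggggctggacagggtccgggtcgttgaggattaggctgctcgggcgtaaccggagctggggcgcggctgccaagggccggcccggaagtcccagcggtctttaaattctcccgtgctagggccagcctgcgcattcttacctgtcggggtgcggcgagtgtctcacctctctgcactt
DUSP1: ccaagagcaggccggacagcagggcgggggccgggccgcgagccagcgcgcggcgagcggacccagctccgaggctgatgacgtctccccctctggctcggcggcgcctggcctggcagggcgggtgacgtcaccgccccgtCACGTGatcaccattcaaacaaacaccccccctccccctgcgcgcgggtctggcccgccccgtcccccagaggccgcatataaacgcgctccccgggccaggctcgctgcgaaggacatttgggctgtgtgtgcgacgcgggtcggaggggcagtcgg
ALDOC and ANKRD37 hold 3 matches each, of which a pair is the same CACGTG read on both strands. ENO2 holds 1 match and no CACGTG, and the 2 matches of DUSP1 are a single CACGTG. A match describes these letters and does not show binding.

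Of the 25 glycolysis genes above the filter, 23 had a promoter in the table and 9 of them (39.1%) held ACGTG. Of those higher on day 2 with knockdown, 5 of 8 held it. A share was read only where at least 80% of a set had an entry. HIF targets outside glycolysis had one for 23 of 32 members (71.9%) and all genes higher with knockdown for 727 of 910 (79.9%), so the check was void for both. Among all genes lower with knockdown the share was 28.1%, beside 27.1% of all filtered genes. Replication genes held it in 11 of 38 promoters and interferon genes in 8 of 36.

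Oxygen-dependent dioxygenases, which use oxygen to hydroxylate collagen or to demethylate histones, were mixed. Of 34 members, 9 were higher and 4 lower with knockdown on day 2, against 6 higher and none lower with hypoxia alone, and the medians were 0.03 and 0.12. P4HA1, a collagen prolyl hydroxylase, read 9.0 untreated, 10.77 and 10.59 in hypoxia alone, and 10.40 and 11.26 with knockdown, above untreated on all 4 hypoxic arrays. KDM3A, a histone H3K9 demethylase, read 8.92 untreated, 10.70 and 10.34 in hypoxia alone, 9.11 with knockdown on day 1 and 10.78 on day 2.

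Other histone demethylases above 1.5-fold with knockdown were KDM4C at 1.18, KDM7A at 1.04, KDM5B at 1.03, KDM2A at 0.72, KDM6A at 0.68 and KDM5A at 0.62. KDM5B, KDM2A and KDM5A differed by only 0.28, -0.00 and 0.17 with hypoxia alone. P4HA2, the sister of P4HA1, differed less with knockdown than without, at 0.90 with knockdown and 1.51 without, and JMJD6 at -0.00 and 0.77. The lower members were RIOX2, P3H4, OGFOD1 and JMJD8, between -0.95 and -0.71.

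Of 41 mitophagy and autophagy genes, 4 were higher and 2 lower with knockdown on day 2, beside 8.24% and 13.2% of all genes, so the higher share was near that of all genes. With hypoxia alone, 6 were higher and none lower. BNIP3L, a HIF-induced mitophagy receptor, read 9.98 untreated, 10.92 and 10.73 in hypoxia alone, and 10.48 and 10.91 with knockdown. ATG14, part of the complex that starts autophagosomes, differed by 0.91 with and 0.53 without knockdown, and OPTN, a mitophagy adaptor, by 0.76 and 0.94. WIPI1, which binds the growing autophagosome, differed by 0.27 with knockdown and 1.38 without. FUNDC1, another mitophagy receptor, was lower at -0.79 with knockdown on day 2 and higher at 1.05 on day 1.

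Lipid genes were raised in part. Of 25 genes of lipid storage and acyl-CoA synthetases, 5 were higher and 2 lower with knockdown on day 2, and 4 higher and 1 lower with hypoxia alone. Besides HILPDA, the higher members were ACSL5 at 1.33, LPIN1 at 0.99, ACSL1 at 0.92 and ETFDH at 0.75. ETFDH is a mitochondrial dehydrogenase that was also on this list. Of 27 genes of cholesterol and fatty acid synthesis, 8 were higher and 1 lower with knockdown, against 3 and 1 with hypoxia alone, and the medians were 0.20 and 0.26. ACSS2, which makes acetyl-CoA from acetate, differed by 1.07, HMGCS1, at the entry of sterol synthesis, by 0.80, CYP51A1 by 0.78 and SREBF2, the factor that switches sterol genes on, by 0.71. The size of this group depended on the reference, with a median of 1.08 against TGFb with knockdown on day 2 and 1.49 against untreated Snai1ER. HMGCS1 read 11.12 untreated and 11.92 with knockdown and hypoxia on day 2. It read 10.85 and 8.96 with TGFb and knockdown on days 1 and 2, and 9.01 on the untreated Snai1ER array.

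Of 45 unfolded protein and ATF4 genes, 7 were higher and 3 lower with knockdown on day 2, and 12 higher and none lower with hypoxia alone, with medians of 0.10 and 0.28. PPP1R15A, which brings a phosphatase to eIF2alpha, read 8.19 untreated, 9.92 and 9.85 in hypoxia alone, 7.88 with knockdown on day 1 and 9.83 on day 2. ATF3 differed by 1.57 with and 1.47 without knockdown, and EIF2AK3 (PERK) by 0.90 and 0.70.

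Other members of the list differed less with knockdown than without. DNAJB9, a chaperone of the endoplasmic reticulum, differed by 0.55 with and 1.35 without, DDIT3 (CHOP), a transcription factor of the stress response, by 0.76 and 1.43, and HERPUD1 by 0.63 and 1.03. MANF stood at -0.47 with knockdown and 0.84 without, and SYVN1 at -0.26 and 0.76. WARS1, a tRNA synthetase that interferon also induces, was lower with knockdown at -0.87 and higher without at 0.70.

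DNA replication genes were the group with the lowest median. Of 44 members, none was higher and 35 were lower with knockdown on day 2, beside 13.2% of all genes lower, and 23 were lower and none higher with hypoxia alone, beside 4.44%. The median difference was -1.13 with knockdown and -0.61 without. Read against TGFb with knockdown on day 2, 32 were lower, and against untreated Snai1ER, 41 were lower, with none higher in either. Set directly against hypoxia alone on day 2, 20 were lower and none higher, with a median of -0.54.

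GINS2, a subunit of the replicative helicase, read 9.45 untreated, 8.42 and 8.40 in hypoxia alone, and 7.70 and 7.25 with knockdown. CDC45, its partner in the helicase, read 10.14 untreated, 9.18 and 8.85 in hypoxia alone, and 7.94 and 8.0 with knockdown. For both genes the 2 knockdown arrays were the lowest of the 5 and the untreated array the highest. MCM10, a replication initiation factor, differed by -1.94 with and -1.42 without knockdown, and POLE2, a polymerase epsilon subunit, by -1.95 and -1.40. The helicase subunits MCM2 to MCM7 differed by between -1.56 and -1.08 with knockdown, and by between -0.89 and -0.40 without. Some members passed 1.5-fold with knockdown and not without, among them CCNE1 at -1.10 and -0.20, CDC6 at -1.11 and -0.14, TK1 at -1.13 and -0.14 and FEN1 at -1.11 and -0.31.

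Fewer mitosis genes than replication genes passed 1.5-fold. Of 47 members, 12 were lower and none higher with knockdown on day 2, and 3 were lower with hypoxia alone, with medians of -0.36 and -0.30. MAD2L1, a spindle checkpoint protein, read 9.01 untreated, 8.70 and 8.35 in hypoxia alone, 8.82 with knockdown on day 1 and 7.64 on day 2. SPC25 differed by -1.22 with and -0.70 without knockdown, BIRC5 (survivin) by -1.12 and -0.42, and PLK1 by -0.99 and -0.44.

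Ribosome biogenesis genes were lower on both day 2 arrays. Of 44 members, 24 were lower and none higher with knockdown on day 2, beside 13.2% of all genes lower. With hypoxia alone 21 were lower and none higher, beside 4.44% lower, and the medians were -0.69 and -0.55. Against TGFb with knockdown on day 2, 36 were lower, beside 11.2% of all genes. The direct comparison with hypoxia alone on day 2 gave 6 lower and none higher, beside 9.23% of all genes lower, with a median of -0.10. LYAR, a nucleolar protein, read 9.30 untreated, 8.85 and 8.48 in hypoxia alone, and 7.06 and 7.51 with knockdown. UTP20, a processome component, read 8.88 untreated, 7.83 and 7.63 in hypoxia alone, and 7.64 and 7.25 with knockdown. DDX56 and NOP16 differed by -1.69 and -1.63 with knockdown and by -0.87 and -0.71 without. MYC, which drives ribosome production, was within 1.5-fold of untreated on both day 2 arrays, at 0.10 with knockdown and 0.45 without.

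**Figure D2:**
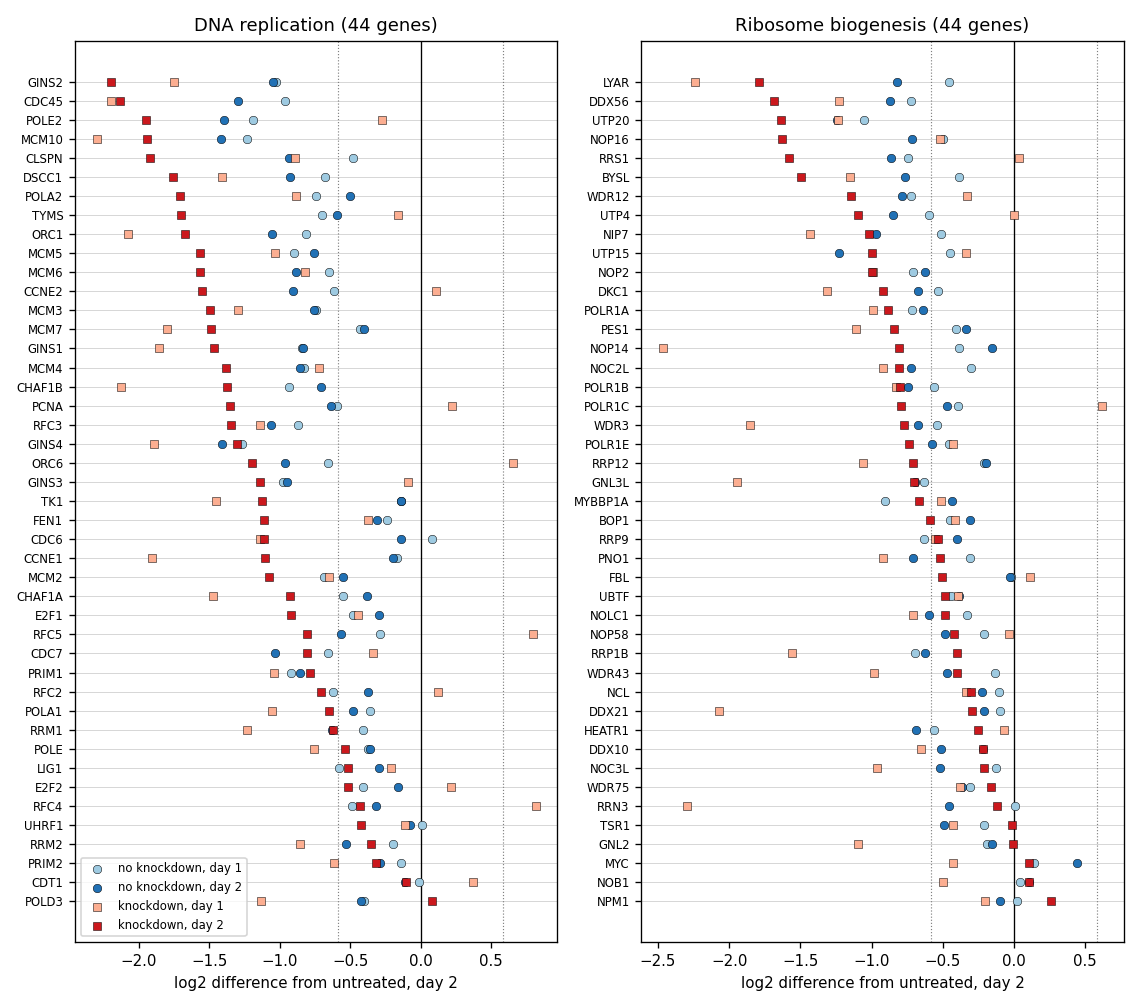
Log2 difference from the untreated array of day 2 for 44 DNA replication genes (left) and 44 ribosome biogenesis genes (right), with 1 point per array and dotted lines at 1.5-fold. With knockdown on day 2 (dark squares) the replication genes reach -2.20 for GINS2 and 35 lie beyond the line, and the ribosome genes reach -1.79 for LYAR with 24 beyond it, while the points without knockdown (circles) mostly lie nearer 0.

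Of 57 genes of the TCA cycle and respiratory chain, 2 were higher and 20 lower with knockdown on day 2, against none higher and 2 lower with hypoxia alone, with medians of -0.34 and -0.19. Below the untreated level by any amount were 46 of the 57 with knockdown and 47 without. The medians over all genes were also below 0, at -0.04 and -0.01, and the share of all genes below by any amount was not counted. Set directly against hypoxia alone on day 2, 4 were higher and 8 lower, beside 4.08% and 9.23% of all genes. CYC1, cytochrome c1 of complex III, read 9.19 untreated, 8.90 and 8.81 in hypoxia alone, 9.23 with knockdown on day 1 and 7.24 on day 2. TFAM, which packages mitochondrial DNA, read 10.16 untreated, 9.85 and 9.50 in hypoxia alone, and 8.28 and 8.89 with knockdown. The lower members included 9 NDUF subunits of complex I, from NDUFB10 at -1.24 to NDUFA9 at -0.59. IDH2, the mitochondrial isocitrate dehydrogenase, was higher at 1.53 and SUCLG2 at 0.76, against 0.14 and -0.29 without knockdown.

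Against TGFb with knockdown on day 2 as reference, 10 respiratory genes were lower and 2 higher, with a median of -0.26, and against untreated Snai1ER 30 were lower and 3 higher, with a median of -0.64. On day 1 the group went both ways with knockdown, with 9 higher and 15 lower beside 9.80% and 25.5% of all genes. COX7A2, NDUFA2 and NDUFB8, for example, differed by 0.95, 1.05 and 0.76 on day 1 and by -0.96, -1.08 and -1.17 on day 2.

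The interferon response was the group whose direction with knockdown was opposite to that without, and the direction depended on the reference array. Of 41 members, none was higher and 23 lower with knockdown on day 2, whereas 22 were higher and none lower with hypoxia alone, both read against the same untreated array, with medians of -0.76 and 0.61. Against TGFb with knockdown on day 2, however, 20 were higher and none lower, with a median of 0.58. Against untreated Snai1ER 17 were higher and 3 lower, with a median of 0.34. The median level of the 41 genes was 8.66 untreated, 8.95 and 9.51 in hypoxia alone, 7.33 and 7.97 with knockdown and hypoxia, 7.68 and 6.76 with knockdown and TGFb on days 1 and 2, and 7.19 on the untreated Snai1ER array. All 41 genes lay lower on the day 2 knockdown array than in hypoxia alone on day 2. Their median was -1.49, beside -0.03 over all genes, and 36 of them were lower by at least 1.5-fold, beside 9.23% of all genes.

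IFITM1, a membrane protein that blocks virus entry, read 8.24 untreated, 8.25 and 9.13 in hypoxia alone, and 6.22 and 5.84 with knockdown, but 5.32 with TGFb and knockdown on day 2 and 5.31 on the untreated Snai1ER array. OAS1, which senses double-stranded RNA, read 10.69 untreated, 10.99 and 11.31 in hypoxia alone, and 8.63 and 9.11 with knockdown, with 6.58 and 6.84 on those 2 references. The knockdown arrays thus lay below the untreated parental array for both genes, while the references of TGFb with knockdown and Snai1ER lay lower still. ISG15, a ubiquitin-like modifier, differed by -1.80 with and 0.74 without knockdown, RSAD2 by -1.26 and 1.78, OAS2 by -1.39 and 1.62, and IFI35 by -1.63 and 0.46. IFIT2, DDX60 and IFIH1 stayed close to untreated with knockdown, at 0.00, -0.03 and -0.15, and stood at 1.58, 0.85 and 0.59 without. IFITM1 has close copies in its family, so its probe set may read more than 1 gene. Below the filter, MX2 and TRIM22 differed by -1.16 and -0.99 and GBP2 by 0.84 with knockdown.

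**Figure D3:**
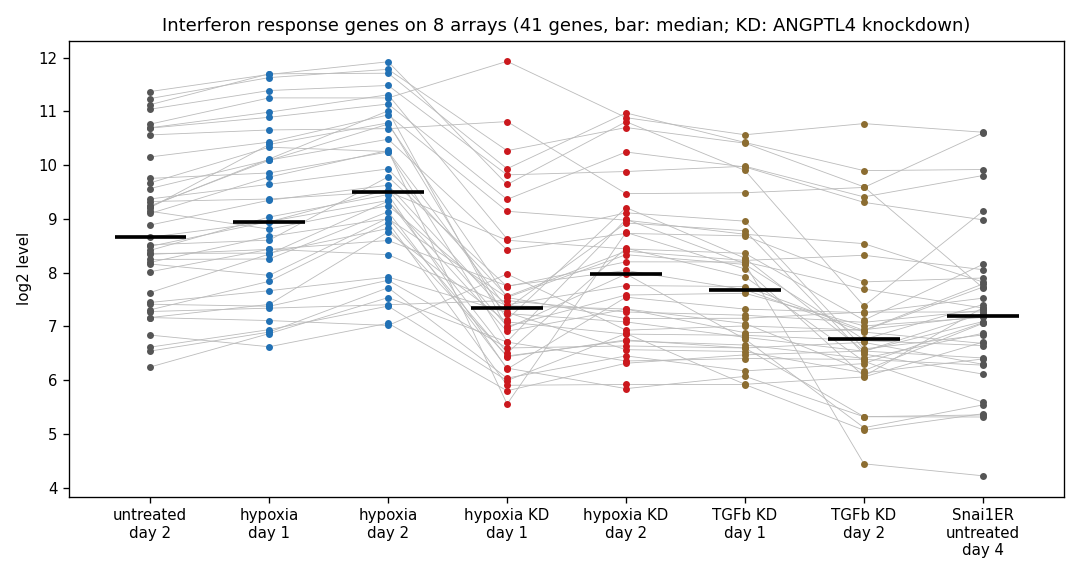
Log2 level of 41 interferon response genes on 8 arrays, with 1 point per gene, grey lines joining each gene and a black bar at the median. The median reaches 9.51 in hypoxia alone on day 2 and lies at 7.97 with knockdown and hypoxia on day 2, between the untreated parental array at 8.66 and the array with TGFb and knockdown on day 2 at 6.76.

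Cytokines and NF-kB feedback genes were higher in part with knockdown, and by less against the TGFb reference for some. Of 31 members, 7 were higher and 5 lower with knockdown on day 2. With hypoxia alone 12 were higher and none lower, and the medians were 0.14 and 0.33. Against TGFb with knockdown on day 2, 9 were higher and 3 lower, with a median of -0.07. CXCL8 (interleukin 8) read 7.49 untreated, 10.79 and 10.26 in hypoxia alone, 7.69 with knockdown on day 1 and 9.46 on day 2. IL1A, an alarmin cytokine, read 7.15 untreated, 9.42 and 9.0 in hypoxia alone, and 7.37 and 8.80 with knockdown. Both were raised on day 2 and near the untreated level on day 1. TNFAIP3 and NFKBIZ, feedback genes of NF-kB, differed by 1.82 and 1.77 with knockdown and 0.94 and 1.29 without. Against TGFb with knockdown on day 2, where IL1A read 8.38, IL1A differed by 0.42. CXCL8, TNFAIP3 and NFKBIZ differed from that array by 1.03, 0.98 and 1.76. The chemokine CCL5, which interferon also induces, read 8.78 untreated, 10.22 and 11.26 in hypoxia alone, and 9.03 and 8.16 with knockdown, so it was higher without and lower with knockdown on day 2. SOD2 and ICAM1 differed by 1.35 and 1.07 without knockdown and by -0.71 and 0.00 with it.

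Redox and metallothionein genes were lower with knockdown. Of 40 members, 1 was higher and 19 lower on day 2, against 1 higher and 6 lower with hypoxia alone, with medians of -0.56 and -0.12. Part of this was shared. AKR1C2, an aldo-keto reductase, read 10.36 untreated, 8.08 and 5.98 in hypoxia alone, and 7.09 and 6.79 with knockdown. AKR1C3 differed by -2.61 with and -1.79 without knockdown, GPX2, a glutathione peroxidase, by -1.77 and -0.92, and NQO1 by -0.97 and -0.73. The AKR1C genes are near-identical in sequence, so their values may mix. Against untreated Snai1ER, where AKR1C2 read 6.60, its difference was 0.19.

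The metallothioneins differed from hypoxia alone. MT2A, which binds zinc and copper, read 11.55 untreated, 11.84 and 11.78 in hypoxia alone, and 10.68 and 10.07 with knockdown. MT1X differed by -1.31 with and 0.45 without knockdown and MT1F by -0.62 and 0.49, although members of this family share sequence. GSR, glutathione reductase, differed by -1.25 with and -0.30 without. CAT, which breaks down hydrogen peroxide, was the member called higher, at 1.00 with knockdown and -0.01 without.

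Epithelial and mesenchymal genes showed no common direction. Of 40 epithelial junction and keratin genes, 7 were higher and 3 lower with knockdown on day 2, against 3 and none with hypoxia alone. ELF3, an epithelial transcription factor, differed by 1.31, MUC1 by 0.95 and DSP (desmoplakin) by 0.82, while the keratins KRT8, KRT18 and KRT7 differed by -0.99, -0.89 and -0.69. KRT8 read 12.22 untreated, 12.03 and 11.97 in hypoxia alone, 9.48 with knockdown on day 1 and 11.22 on day 2. Of 36 EMT factors and mesenchymal genes, 3 were higher and 4 lower, beside 8.24% and 13.2% of all genes, so both shares were near those of all genes. With hypoxia alone 5 were higher and none lower, beside 5.20% and 4.44%. The members below are therefore single genes and not a response of the list. ITGA5, the fibronectin receptor subunit, was kept, at 6.76 untreated, 8.85 and 9.19 in hypoxia alone, 7.0 with knockdown on day 1 and 8.99 on day 2. FN1 (fibronectin) differed by -0.77 with and 1.15 without knockdown, and LAMB3, a laminin chain, by 0.62 and 1.89. THBS1, a matrix glycoprotein, read below untreated on every hypoxic array, from 9.03 untreated to 8.10 and 8.46 without and 7.43 and 6.55 with knockdown. S100A4 and ANKRD1 differed by -2.10 and -1.46 with knockdown and by -0.58 and 0.28 without.

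ABC transporters passed 1.5-fold with knockdown on day 2 at shares near those of all genes. Of 20 members above the filter, 1 was higher and 2 lower with knockdown, beside 8.24% and 13.2% of all genes. With hypoxia alone 2 were higher and 3 lower, beside 5.20% and 4.44%. ABCB6, a mitochondrial porphyrin transporter, read 6.19 untreated, 6.90 and 7.03 in hypoxia alone, and 6.82 and 7.0 with knockdown, above untreated on all 4 hypoxic arrays. The lower members, ABCF2 at -1.04 and ABCE1 at -0.83, belong to subfamilies without membrane-spanning parts, and ABCE1 recycles ribosomes. ABCB1 and ABCG2 were below the filter and differed by 0.20 and -0.44, and ABCC1 differed by 0.15 with knockdown on day 2 and by -1.20 on day 1.

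**Figure D4:**
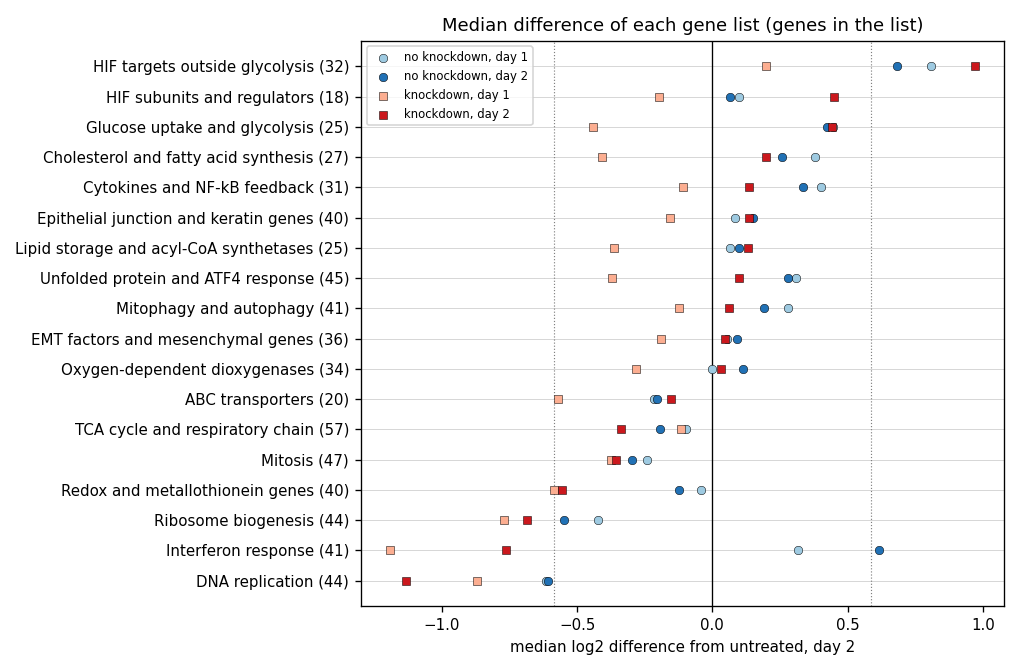
Median log2 difference from the untreated array of day 2 over the members of each gene list above the filter, with 1 point per hypoxic array, the number of genes in brackets and dotted lines at 1.5-fold. With knockdown on day 2 (dark squares) the medians run from 0.97 for HIF targets to -1.13 for DNA replication, and the interferon list lies at -0.76 with knockdown against 0.61 without.

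Outside these groups, the largest difference in each direction on day 2 with knockdown was in a small nucleolar RNA, SNORD14E and SNORD116-6. Such RNAs guide the modification of other RNAs. SNORD14E read 7.88 untreated, 8.58 and 7.05 in hypoxia alone, and 9.98 and 12.07 with knockdown, and SNORD14C read 9.49, 9.20 and 8.53, then 6.25 and 12.10. SNORD116-6 differed the other way, reading 10.08 untreated, 9.83 and 9.60 in hypoxia alone, and 8.28 and 4.76 with knockdown. Its level was also low with TGFb and knockdown, at 4.28 and 4.52. These RNAs belong to families of near-identical copies, so which copy was measured is uncertain.

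Among other coding genes, CREBRF, a regulator of the stress factor CREB3, read 7.37 untreated, 9.10 and 9.39 in hypoxia alone, 6.63 with knockdown on day 1 and 10.13 on day 2. SCEL, a precursor protein of the cornified envelope, read 7.26 untreated, 8.59 and 8.72 in hypoxia alone, and 8.64 and 9.65 with knockdown. FOS, an immediate early gene, differed by 2.38 with knockdown and stood at 8.55 against 7.14 in hypoxia alone. The largest decreases included EDNRB, an endothelin receptor, which read 8.31 untreated, 7.39 and 6.19 in hypoxia alone, and 5.47 and 5.24 with knockdown. SPP1 (osteopontin), at 10.54 untreated, read 8.81 in hypoxia alone and 7.64 with knockdown on day 2. IVL (involucrin) differed by -2.37, GJA5 (a connexin) by -2.39 and GSTM3 by -2.29. Of these 5 genes, GJA5 was within 1.5-fold of untreated in hypoxia alone on day 2, at 7.45 against 7.74.

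The share of the day 2 hypoxia response found again with knockdown was counted with no array in common, by reading hypoxia alone against the untreated parental array and knockdown against the untreated Snai1ER array. Of 575 genes higher with hypoxia alone, 338 (58.8%) were higher with knockdown and 29 (5.04%) lower, while 14.6% of all genes were higher in that comparison. Of 491 genes lower with hypoxia alone, 337 (68.6%) were lower with knockdown and 28 (5.70%) higher, beside 18.1% of all genes. When the references were exchanged, 1491 genes (13.5%) were higher and 1295 (11.7%) lower with hypoxia alone, and the shares were 446 of 1491 (29.9%) beside 8.24% of all genes, and 587 of 1295 (45.3%) beside 13.2%. The shares thus depended on the reference, and part of each list may reflect the difference between the lines and days of the references, which was not tested.

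By group, with these separate references, 15 of 17 HIF targets, 6 of 7 glycolysis genes, 4 of 6 dioxygenases and 3 of 3 sterol genes that were higher with hypoxia alone were also higher with knockdown. All 23 replication genes and 20 of 21 ribosome genes that were lower were lower again. The count was 7 of 12 for ATF4 and unfolded protein genes, 6 of 12 with 3 lower for cytokine genes, 3 of 6 for autophagy genes and 1 of 5 with 2 lower for EMT and mesenchymal genes. For interferon genes the count was 11 of 22, with 1 lower, and against the parental reference none of the list was higher. Against untreated Snai1ER, 41 of all 44 replication and 34 of all 44 ribosome genes were lower, beside 18.1% of all genes. Higher were 20 of all 27 sterol genes, 20 of all 45 ATF4 and unfolded protein genes and 17 of all 41 interferon genes, beside 14.6%. That array lay above the untreated parental one for 35 replication and 42 ribosome genes. It lay below the parental one for 25 sterol genes, 40 ATF4 and unfolded protein genes and 35 interferon genes. Over all genes its median difference from the parental array was 0.02, and the share on either side was not counted. High counts in these groups therefore cannot show what was retained. For HIF targets and glycolysis, 24 of all 32 and 12 of all 25 were higher against it.

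**Figure D5:**
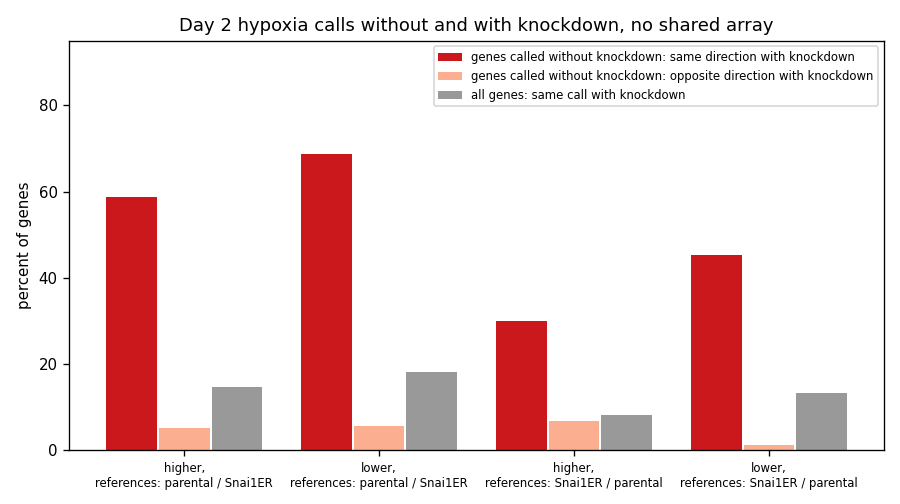
Percent of the genes called in hypoxia alone on day 2 that were called in the same direction with knockdown (dark bars) or in the opposite one (pale bars), beside the percent of all 11050 genes called with knockdown (grey bars), for each order of the untreated parental and Snai1ER reference arrays. The dark bars reach 58.8% and 68.6% with the first order and 29.9% and 45.3% with the other, each above its grey bar.

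On day 1 the pattern with knockdown was partial. Against the untreated array, which is of day 2, 1083 genes were higher (9.80%) and 2817 lower (25.5%). Hypoxia alone on day 1 gave 499 higher (4.52%) and 335 lower (3.03%). HIF targets had 11 higher and 2 lower of 32 with a median of 0.20, against 19 higher and none lower with a median of 0.81 without knockdown. Glycolysis had 2 higher and 10 lower of 25. Among targets kept at this time were EGLN3 at 3.24, P4HA1 at 1.41, ANKRD37 at 1.43, NFIL3 at 1.27, INSIG2 at 1.23 and IGFBP3 at 1.21. ALDOC, PFKFB3 and KDM7A were lower than untreated, at -0.69, -0.87 and -1.09, and HILPDA differed by -0.42. Replication had 3 higher and 28 lower of 44, with ORC6, RFC5 and RFC4 as the higher ones, and interferon genes had 2 higher and 33 lower of 41.

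Of the 10 genes with the largest day 1 differences, 7 lay within 1.5-fold of untreated on day 2. CYB5R2 read 7.29 untreated, 7.59 and 7.98 in hypoxia alone, 10.91 with knockdown on day 1 and 7.71 on day 2. FBXO4, DICER1-AS1, C6orf52 and DORIP1 differed by between 3.36 and 3.54 on day 1 and by between -0.18 and 0.64 on day 2. GMEB1 read 8.95 untreated, 5.45 with knockdown on day 1 and 9.03 on day 2, and IFIT3 read 9.10, 5.55 and 8.75. SNORD52, SNORD21 and BCL2L15 were lower by 3.82, 3.65 and 3.42 on the log2 scale. These values move with the array that stood apart in spread and correlation, and its part in them was not tested.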

How the data were processed

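RNA was hybridised to 14 whole-transcript arrays, 1 per condition. The deposited values are log2 levels, used as given. For them the submitters' processing notes name the tools Partek and RMA (robust multi-array average, which corrects background, equalises arrays and summarises probes) and no version. The deposited arrays still differed in level, with medians of 5.23 and 5.19 for TGFb without knockdown on days 1 and 2. On the other 12 arrays the medians ran from 6.00 to 6.16, and all 14 entered the mean used by the filter. The genome build behind the probe sets is not given in the sources used here. Of 33297 probe sets, 19460 had 1 gene symbol, 1754 had several and 12083 were not listed in the annotation. Only those with 1 symbol were named, and 19429 of them had their symbol updated through the gene ID. Probe sets of a gene were averaged into 18417 genes, and 11050 with a mean over all arrays at or above the 40th percentile (log2 5.90) were kept. A gene was called at 1.5-fold. At that limit, COPRS at -0.5851 was inside and TMEM181 at -0.5847 outside.

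The 18 gene lists, the 4 marker lists and the comparisons were chosen with earlier results of these data known. The 115 genes named by rule were the 10 largest differences each way on day 2, up to 4 members of each list, all HIF regulators, the 5 most altered each way by knockdown, the 5 largest each way on day 1 and 4 study genes. Other named genes were picked from the lists after their values were seen. Alternatives covered scaling, the filter, probe sets, the reference, the rule of size and the time point. Tables were computed in Python 3.11.15 with pandas 2.3.3 and numpy 2.4.6, checked on simulated data, and drawn with matplotlib 3.10.9. The number of arrays limits the precision.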

Additional observations from a re-analysis of the deposited data

Results flagged for a closer look

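Of the 115 genes named by rule, 11 passed 1.5-fold in opposite directions with and without knockdown on day 2. Both were read against the same untreated array, and these differences were not tested. They were lower with and higher without knockdown for IFITM1 (-2.40 and 0.89), ISG15 (-1.80 and 0.74), OAS1 (-1.58 and 0.61), OAS2 (-1.39 and 1.62), RSAD2 (-1.26 and 1.78), WARS1 (-0.87 and 0.70) and CCL5 (-0.62 and 2.48). They were higher with and lower without knockdown for SNORD14E (4.20 and -0.82), SNORD14C (2.60 and -0.97), GPCPD1 (1.23 and -0.92) and the mitochondrial pseudogene MTND2P28 (1.11 and -0.89), which reads close copies. Over all 11050 genes 31 did so. Genes named in the text but not by rule, such as FN1 and SOD2, are not listed here although they also did so.

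Of the same 115 genes, 12 passed 1.5-fold in opposite directions on days 2 and 1 with knockdown, and this was not tested either. COX7A2, NDUFA2 and NDUFB8, not named by rule, also did so and are not listed here. Higher on day 2 and lower on day 1 were ALDOC (3.15 and -0.69), CREBRF (2.75 and -0.74), SNORD14C (2.60 and -3.24), SNORD59B (2.43 and -2.41), PFKFB3 (1.91 and -0.87), ACSS2 (1.07 and -0.65), KDM7A (1.04 and -1.09), LPIN1 (0.99 and -1.56), ATG14 (0.91 and -1.40) and SREBF2 (0.71 and -0.59). Lower on day 2 and higher on day 1 were GSTM3 (-2.29 and 0.73) and FUNDC1 (-0.79 and 1.05). Over all genes 252 did so, beside a day 1 array whose spread and correlation stood apart.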

How the results depend on the processing

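No paired analysis was possible because each condition has 1 array and the result comes from no test. The shares found again with knockdown were 29.9% (higher) and 45.3% (lower) with references exchanged, and the lower share was 58.2% with no filter. Of the counts, 1615 genes were higher with the untreated Snai1ER reference, 259 higher and 431 lower at 2-fold, 2817 lower on day 1 and 537 higher with the mean of both knockdown arrays. The cause of these changes was not tested. With TGFb and knockdown on day 1 as reference, an alternative chosen after seeing the data, 837 were lower. Centring each array on its median changed the day 2 calls to 734 higher and 1740 lower and moved the median of all genes on day 1 from -0.13 to -0.27, and no named gene past 1.5-fold changed sign.

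List medians moved in few settings. Cholesterol and fatty acid synthesis had 1.49 with the Snai1ER reference, 1.08 with TGFb and knockdown on day 2 and -0.41 on day 1. The interferon median turned to 0.34, 0.58 and, with TGFb and knockdown on day 1, 0.16, and was -0.020 against the mean of both untreated arrays. On day 1 HIF regulators had -0.20, HIF targets 0.20 and glycolysis -0.44. Of 198 alternative list medians, 188 moved by less than 1.5-fold.

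Genes named by rule and past 1.5-fold changed sign as follows. Against untreated Snai1ER the differences were AKR1C2 0.19, IFITM1 0.53, IVL 0.057, OAS1 2.27, CCL5 1.37, RSAD2 2.44, OAS2 0.54 and BCL2L15 2.67. Against the mean of both untreated arrays they were OAS1 0.35, CCL5 0.37, RSAD2 0.59 and BCL2L15 0.62. Against TGFb and knockdown on day 2 they were SNORD116-6 0.24, IFITM1 0.52, ELOB 0.17, ISG15 0.55, IFI35 0.33, OAS1 2.53, CCL5 1.68, RSAD2 2.86, OAS2 0.85 and BCL2L15 0.99, and against the same on day 1 SNORD116-6 0.48, ACSL5 -0.069, ISG15 0.29, IFI35 0.078, OAS1 0.16, CCL5 0.56, RSAD2 1.21 and OAS2 0.0018. On the day 1 array they were ALDOC -0.69, HILPDA -0.42, CREBRF -0.74, SNORD14C -3.24, SNORD59B -2.41, GSTM3 0.73, BHLHE40 -0.34, ARNT -0.33, DUSP1 -0.084, KDM7A -1.09, PFKFB3 -0.87, ATG14 -1.40, FUNDC1 1.05, CYC1 0.038, ACSS2 -0.65, HMGCS1 -0.35, CYP51A1 -0.38, SREBF2 -0.59, LPIN1 -1.56, ACSL1 -0.49, PPP1R15A -0.31, ATF3 -0.24, EIF2AK3 -0.53, BIRC5 0.29, TNFAIP3 -0.51, NFKBIZ -0.093, GPCPD1 -0.22 and CCL5 0.25. With the mean of both knockdown arrays they were SNORD14C -0.32, KDM7A -0.021, ATG14 -0.24, FUNDC1 0.13 and LPIN1 -0.28.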
